A study of Homo sapiens with 12 samples.

Results

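The nuclear-encoded subunits of the mitochondrial respiratory chain and ATP synthase were examined complex by complex in A375 cells, an established human melanoma cell line with a mutated BRAF. They are the 88 genes, of 44659 in the table of counts, whose symbols name a subunit of complex I (37 genes), complex II (4), complex III (10), cytochrome c (1), complex IV (17) or complex V (19), without pseudogenes and without further copies of a gene. The cells received a BRAF inhibitor, vemurafenib (500 nM), together with a MEK inhibitor, cobimetinib (500 nM), for 24 h (MAPKi), or the solvent DMSO. In a separate experiment the cells spent 24 h in medium lacking glutamine (Gln depletion) or in CTRL medium with 2 mM glutamine. The MAPKi and DMSO cells were also given 2 mM glutamine. Each of the 4 groups has 3 RNA-seq libraries, 12 in all, from 1 cell line, and nothing in the labels says that replicates are separate cultures, so the p-values below measure only the spread between these libraries. The labels describe RNA of a cytoplasmic fraction obtained by lysis in Triton X-100, whereas the RNA-seq methods of the study describe total RNA.

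The respiratory chain sits in the inner mitochondrial membrane. Complex I (NADH dehydrogenase) and complex II (succinate dehydrogenase, also an enzyme of the TCA cycle) pass electrons to ubiquinone, complex III (cytochrome bc1) passes them on to cytochrome c, and complex IV (cytochrome c oxidase) passes them to oxygen. Complexes I, III and IV pump protons across the membrane, and complex V (ATP synthase) uses their return to make ATP. Most subunits are encoded in the nucleus and imported as proteins. The subunits encoded by mitochondrial DNA were not analysed here. Glutamine is a main carbon source of the TCA cycle in many cultured cells, and BRAF-mutated melanoma cells are known to rely more on respiration when the MAPK pathway is inhibited.

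The libraries held 31056296 to 40071368 counted reads, with a median of 35748567. The 88 genes took 0.925% to 0.9543% of the reads with DMSO, 1.518% to 1.555% with MAPKi, 0.819% to 0.9434% in CTRL medium and 0.6365% to 0.7565% with Gln depletion. RN7SK, a non-coding RNA, took 3.953% to 4.397% of the reads with MAPKi and 1.927% to 2.148% with DMSO, and 1.989% to 3.79% with Gln depletion and 1.548% to 2.253% in CTRL medium, and its part in the results was not tested. As a check of the treatments, all 8 MAPK pathway targets examined fell with MAPKi (median log2 fold change -5.82), and all 5 amino acid response genes tested rose with Gln depletion (median 2.71). Both lists also moved in the other experiment. With Gln depletion 3 of the 8 MAPK pathway targets rose (median 0.65), beside 8.84% of all genes tested. With the replicate number as a block all 8 rose, beside 22.7%. With MAPKi 3 of the 5 amino acid response genes rose and 2 fell, beside 35.8% and 35.9% of all genes tested. The summed normalised counts of 16 melanoma and melanocyte markers were 346948 to 435896 with MAPKi, 160738 to 162012 with DMSO, 113481 to 193247 with Gln depletion and 125549 to 191882 in CTRL medium. Those of 13 markers of other cell types were 323 to 358, 223 to 242, 163 to 312 and 138 to 245 in the same order, most of them from VWF, and CD3E and KRT5 were among those with no read. The melanoma and melanocyte markers did not move together. With MAPKi 10 of the 15 tested rose and 4 fell (log2 fold changes from -3.43 to 5.29), beside 35.8% and 35.9% of all genes tested. Levels in bulk RNA do not tell fewer cells from less RNA per cell.

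Of the 88 genes, 76 had a mean normalised count of at least 10 and were tested with MAPKi, and 75 with Gln depletion. The 12 genes not tested with MAPKi and the 13 not tested with Gln depletion had at most 23 reads in every library. COX6B2 is the gene that was tested with MAPKi only. They include tissue-restricted isoforms (COX4I2, COX6A2, COX7A1, COX7B2, COX8C and COX6B2) but also subunits that most cells use, such as COX5B (0 to 5 reads), NDUFB10 (0 to 2), NDUFA6 (0 to 1), NDUFA3 (0 to 16), NDUFS3 (0 to 15) and ATP5IF1, the inhibitory factor of ATP synthase (0 to 1). For 8 of the 88 genes the table holds further copies that were not added, and the copy of NDUFS3 had 14 to 1228 reads, that of ATP5IF1 1 to 297 and the 9 copies of NDUFA3 together 10 to 156. These low counts were therefore not read as levels of the genes. Exons of 46 of the 88 genes overlap those of another gene, for 31 of them on the opposite strand, and the sources used here do not state whether reads were counted by strand.

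The mRNAs of most nuclear-encoded subunits tested were higher with MAPKi than with DMSO. With MAPKi, 68 of the 76 genes tested rose and 2 fell (edgeR's quasi-likelihood test, adjusted after Benjamini-Hochberg over all genes tested, threshold 0.05), whereas 35.8% of all 15975 genes tested rose and 35.9% fell. The median log2 fold change of the 76 genes was 0.66, against -0.00 for all genes tested. A change past 1.5-fold (0.585 on the log2 scale), the size used by the study, was called as a rise for 34 of the 76 genes (15 with all 12 libraries in 1 fit) and as a fall for 0, with 16.1% of all genes past it upwards and 17.6% downwards. DESeq2 called 67 genes as risen and 2 as fallen against no change. All 3 MAPKi libraries were above all 3 DMSO libraries for 68 genes and below them for 2, beside 37.9% and 38.1% of all genes tested. Among the 71 genes with a mean normalised count of at least 100, 66 rose and 2 fell, while 4575 of 11658 such genes rose among all. Of the 68 genes, 48 rose in each of the alternative analyses run, and the other 20 were not called in at least 1 of them.

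**Figure D1:**
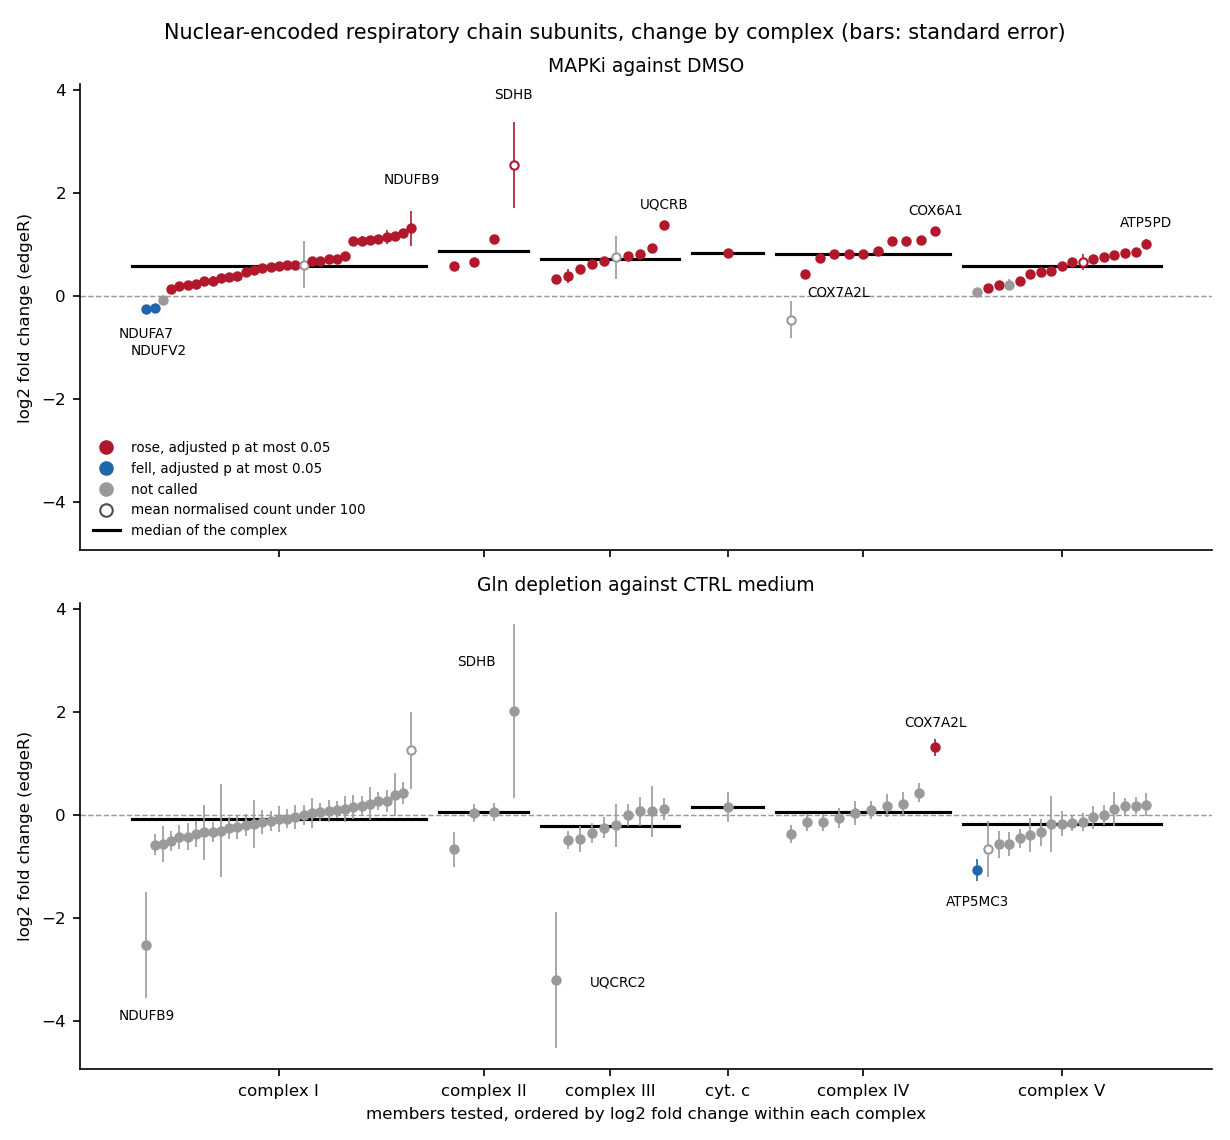
Log2 fold change of each gene tested (points, error bars are standard errors) by complex, with MAPKi against DMSO and with Gln depletion against CTRL medium, 3 libraries per group. Red points rose, blue points fell, grey points were not called, open points have a mean normalised count under 100, and black lines are medians. With MAPKi the medians lie between 0.58 and 0.89 in every complex, and with Gln depletion between -0.23 and 0.15.

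All complexes took part. In complex I, 29 of 33 genes tested rose and 2 fell (median log2 fold change 0.59). In complex II all 4 rose (0.89, or 0.66 for the 3 genes with a mean normalised count of at least 100). In complex III 9 of 10 rose (0.72), cytochrome c rose (0.85), in complex IV 10 of 11 rose (0.83), and in complex V 15 of 17 rose (0.58). A rise past 1.5-fold was called for 12, 1, 5, 1, 9 and 6 of these genes in the same order. Corrected for a trend with the length of the longest transcript, the median of complex IV was 1.05, so the order of the complexes is not read further.

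In complex I both the catalytic core and the accessory subunits rose in most cases, and the difference between them was not tested. Of the 6 core subunits tested 5 rose and 1 fell (median 0.60), and of the 27 other subunits 24 rose and 1 fell (0.55). NDUFB5, an accessory subunit of the membrane arm (chr3:179604690-179627647, GRCh38, plus strand), had normalised counts of 3610, 3588 and 3744 in the DMSO libraries and of 8885, 8507 and 8231 in the MAPKi libraries. The groups were far apart, with a 2.34-fold higher mean with MAPKi (log2 fold change 1.23, standard error 0.04, edgeR's quasi-likelihood adjusted p = 6.6e-08). NDUFB9, also of the membrane arm, had 45.9, 104 and 50.1 normalised counts with DMSO and 226, 128 and 148 with MAPKi. Its groups did not overlap either, but its counts were low for a subunit of this complex, and it rose with a wide error (1.32, standard error 0.34, edgeR's quasi-likelihood adjusted p = 0.0077). The call was lost when all 12 libraries shared 1 estimate of the spread (edgeR's quasi-likelihood adjusted p = 0.24). Among the core subunits, NDUFV1, which binds the FMN that takes electrons from NADH, was 1.48-fold higher with MAPKi. NDUFA4, which carries a complex I name but is now known as a subunit of complex IV, was 2.10-fold higher with groups that did not overlap. Both genes were named after their values were seen.

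NDUFV2 and NDUFA7 went the other way. NDUFV2, an iron-sulfur core subunit next to NDUFV1, had 4255, 4497 and 4376 normalised counts with DMSO and 3788, 3673 and 3800 with MAPKi. The groups did not overlap, and the change was small (0.858-fold, log2 fold change -0.22, standard error 0.04, edgeR's quasi-likelihood adjusted p = 0.0011). NDUFA7, an accessory subunit of the matrix arm, had 1464, 1452 and 1531 with DMSO and 1275, 1226 and 1253 with MAPKi. These did not overlap either (0.844-fold, log2 fold change -0.24, standard error 0.04, edgeR's quasi-likelihood adjusted p = 0.00076). Both calls were lost when fold changes were corrected for a trend with the length of the longest transcript, which left NDUFA7 at -0.03 and NDUFV2 at -0.08 (edgeR's quasi-likelihood adjusted p = 0.62 and 0.10), and when all 12 libraries were fitted together (0.46 and 0.17). Exons of another gene on the same strand cover 32.5% of the exon bases of NDUFA7 and 28.4% of those of NDUFV2.

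Complex II is the smallest complex, with a flavoprotein (SDHA), an iron-sulfur protein (SDHB) and a pair of membrane anchors (SDHC and SDHD). SDHD (chr11:112086824-112120016, GRCh38, plus strand) had 2110, 2090 and 2029 normalised counts with DMSO and 4483, 4473 and 4540 with MAPKi. It was 2.17-fold higher with MAPKi with little spread (log2 fold change 1.12, standard error 0.04, edgeR's quasi-likelihood adjusted p = 4.3e-08). SDHA had 4998, 5118 and 5520 with DMSO and 8499, 7966 and 8169 with MAPKi. It rose less, by 1.58-fold (0.66, standard error 0.05, edgeR's quasi-likelihood adjusted p = 5.3e-06), and SDHC rose 1.49-fold. SDHB, which carries electrons from SDHA to ubiquinone, had only 8.54, 6.96 and 7.72 normalised counts with DMSO and 12.1, 16.6 and 107 with MAPKi. One MAPKi library decides its fold change of 2.54 on the log2 scale (edgeR's quasi-likelihood adjusted p = 0.023), and without MAPKi replicate 3 it was 0.88 and not called (edgeR's quasi-likelihood adjusted p = 0.095). The call of SDHB was also lost without any 1 of the DMSO libraries (edgeR's quasi-likelihood adjusted p = 0.053 to 0.069).

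In complex III, UQCRB, a small subunit near a ubiquinone site, showed the largest rise of the members with a mean normalised count of at least 100. It had 2725, 3045 and 3124 normalised counts with DMSO and 7682, 7891 and 7553 with MAPKi. The means differed 2.60-fold (log2 fold change 1.38, standard error 0.06, edgeR's quasi-likelihood adjusted p = 1.3e-07). CYC1, the cytochrome c1 subunit that hands electrons to cytochrome c, had 4611, 4608 and 4617 with DMSO and 9072, 8878 and 8679 with MAPKi. It was 1.92-fold higher (0.94, standard error 0.04, edgeR's quasi-likelihood adjusted p = 1.1e-07), and UQCRFS1, the Rieske iron-sulfur protein, was 1.54-fold higher. The hinge protein UQCRH, already abundant with 12006, 12831 and 12806 normalised counts with DMSO, had 15600, 15589 and 16024 with MAPKi. This smaller rise of 1.25-fold was still outside the spread (0.33, standard error 0.04, edgeR's quasi-likelihood adjusted p = 0.00017). Its close copy UQCRHL had 173, 212 and 242 with DMSO and 250 to 293 with MAPKi, and reads of the 2 genes may be split between them. UQCRHL rose by 0.40 on the log2 scale (edgeR's quasi-likelihood adjusted p = 0.029), a call lost when DMSO replicate 1 or 2 or MAPKi replicate 1 or 3 was left out (0.29 to 0.41, edgeR's quasi-likelihood adjusted p = 0.055 to 0.079). UQCRC2, a core protein, had 7.48 to 26.7 normalised counts in the 6 libraries and was not called. Its copy, which was not added, had 3 to 496 reads over all libraries, so these low counts are not read as its level.

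CYCS, the electron carrier between complexes III and IV, had 6476, 6535 and 6303 normalised counts with DMSO and 11288, 11569 and 11914 with MAPKi. It was 1.80-fold higher with MAPKi (log2 fold change 0.85, standard error 0.04, edgeR's quasi-likelihood adjusted p = 3.1e-07).

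In complex IV, where several subunits exist as a ubiquitous and a tissue-restricted isoform, the ubiquitous isoforms tested rose. Few or no reads for an isoform are not read as absence of its mRNA. COX6A1 (chr12:120438090-120440737, GRCh38, plus strand) had 8094, 7533 and 7838 normalised counts with DMSO and 20540, 17893 and 17865 with MAPKi. It was 2.40-fold higher (log2 fold change 1.26, standard error 0.06, edgeR's quasi-likelihood adjusted p = 4.2e-07), while its heart and muscle isoform COX6A2 had no read in any library. COX7B had 3345, 3249 and 3178 with DMSO and 7174, 6851 and 6914 with MAPKi. It was 2.14-fold higher (1.10, standard error 0.04, edgeR's quasi-likelihood adjusted p = 7.7e-08), and COX7B2 had at most 10 reads. COX4I1, the general form of subunit 4, rose from 10778, 10733 and 11127 normalised counts to 24357, 21946 and 22015 (2.09-fold), and COX4I2 had no read. COX6B1 was 1.84-fold, COX8A 1.77-fold and COX7A2 1.67-fold higher, each with groups that did not overlap. COX7A2L, which is built into supercomplexes of complexes III and IV, had 3366, 3415 and 3336 with DMSO and 4326, 4560 and 4703 with MAPKi. Its rise was smaller but clear of the spread (1.34-fold, 0.43, standard error 0.04, edgeR's quasi-likelihood adjusted p = 3.1e-05).

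In complex V the catalytic beta subunit ATP5F1B, the most abundant of its mRNAs per length, had 43120, 42670 and 45337 normalised counts with DMSO and 81490, 78651 and 79176 with MAPKi. It was 1.83-fold higher (log2 fold change 0.87, standard error 0.04, edgeR's quasi-likelihood adjusted p = 3.3e-07). ATP5PD, subunit d of the peripheral stalk, had 3116, 3192 and 3792 with DMSO and 6385, 7223 and 6925 with MAPKi. The rise was 2.03-fold (1.02, standard error 0.08, edgeR's quasi-likelihood adjusted p = 6.3e-06). Exons of KCTD2 and RN7SL573P on the other strand together cover 19.1% of the exon bases of ATP5PD.

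The 3 genes of subunit c, ATP5MC1 (chr17:48892765-48895871, plus strand), ATP5MC2 (chr12:53632726-53677408, minus strand) and ATP5MC3 (chr2:175176258-175181710, minus strand, all GRCh38), encode the same mature protein of the rotor ring with different import sequences, and they did not move together. ATP5MC3 had 9476, 9778 and 9788 normalised counts with DMSO and 17303, 17242 and 17575 with MAPKi, a 1.79-fold rise (log2 fold change 0.84, standard error 0.04, edgeR's quasi-likelihood adjusted p = 2.3e-07). ATP5MC1 had 2920, 2944 and 2890 with DMSO and 4902, 4646 and 4822 with MAPKi, a 1.64-fold rise (0.72, standard error 0.04, edgeR's quasi-likelihood adjusted p = 6.3e-07). ATP5MC2 had 6175, 6104 and 6804 with DMSO and 6732, 6692 and 6864 with MAPKi. Its groups overlapped and it was not called (0.09, standard error 0.05, edgeR's quasi-likelihood adjusted p = 0.15), although without DMSO replicate 3 it was at 0.16 and called (edgeR's quasi-likelihood adjusted p = 0.013). Levels per length do not rank these genes. In DMSO they were 306, 221 and 254 TPM for ATP5MC1, ATP5MC2 and ATP5MC3 with the longest transcript as the length, and 347, 773 and 288 with the MANE Select transcript.

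**Figure D2:**
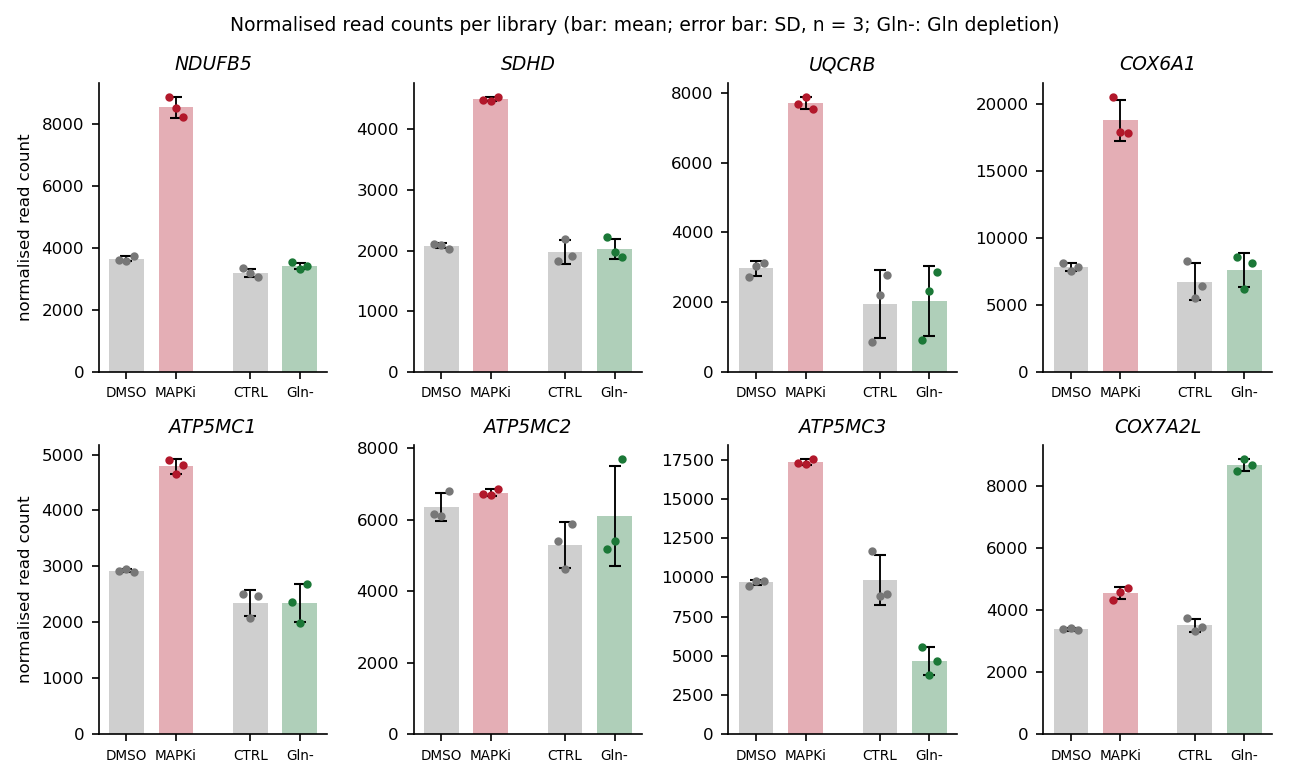
Normalised counts of 8 genes in each of the 12 libraries (points), with bars for the mean and error bars for the SD of 3 libraries per group, where Gln- is Gln depletion. Counts were normalised within each experiment, so DMSO and CTRL bars are not on 1 scale, and ATP5MC3 and COX7A2L show opposite changes with Gln depletion.

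Promoters are shown for SDHD and COX6A1, which had the largest rises with MAPKi of their complexes among genes with a mean normalised count of at least 100, for CYCS, and for COX7A2L, which rose with both treatments. Each sequence runs from 250 bases before the RefSeq start of the gene to 30 bases after it (GRCh38.p14). Capitals mark matches to motifs named below. Gene spans given elsewhere in the text come from GENCODE, whose starts can differ from those of RefSeq. The GENCODE span of COX7A2L starts at 42425088 on the minus strand, outside its window, and that start was not searched. The windows are chr11:112086623-112086902 (plus strand) for SDHD, chr12:120437863-120438142 (plus) for COX6A1, chr7:25125231-25125510 (minus) for CYCS and chr2:42361188-42361467 (minus) for COX7A2L.
SDHD: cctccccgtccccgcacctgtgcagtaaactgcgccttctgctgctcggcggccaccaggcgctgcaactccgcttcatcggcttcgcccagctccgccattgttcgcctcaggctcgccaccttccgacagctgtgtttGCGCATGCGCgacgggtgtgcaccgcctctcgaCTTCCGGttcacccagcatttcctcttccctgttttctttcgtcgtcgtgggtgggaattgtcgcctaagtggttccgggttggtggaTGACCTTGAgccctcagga
COX6A1: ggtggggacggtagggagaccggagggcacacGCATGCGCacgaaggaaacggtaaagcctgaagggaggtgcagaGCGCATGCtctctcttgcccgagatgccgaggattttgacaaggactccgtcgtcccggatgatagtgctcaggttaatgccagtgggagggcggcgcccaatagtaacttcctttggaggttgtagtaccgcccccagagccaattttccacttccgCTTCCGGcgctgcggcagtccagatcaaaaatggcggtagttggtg
CYCS: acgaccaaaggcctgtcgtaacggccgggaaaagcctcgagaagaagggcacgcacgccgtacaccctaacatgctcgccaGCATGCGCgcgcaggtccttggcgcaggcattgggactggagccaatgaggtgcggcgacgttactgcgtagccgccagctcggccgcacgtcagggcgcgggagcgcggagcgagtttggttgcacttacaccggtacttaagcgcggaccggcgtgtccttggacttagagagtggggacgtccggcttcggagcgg
COX7A2L: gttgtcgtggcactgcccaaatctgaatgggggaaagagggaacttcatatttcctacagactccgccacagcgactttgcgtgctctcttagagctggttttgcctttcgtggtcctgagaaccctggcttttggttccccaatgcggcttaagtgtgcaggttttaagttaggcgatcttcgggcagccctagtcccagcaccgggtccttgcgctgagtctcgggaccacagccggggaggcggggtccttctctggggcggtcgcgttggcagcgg

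Of the 88 genes, 70 had a promoter in the RefSeq table, and 6 motifs were searched on both strands from 250 bases before to 50 bases after the start. The nuclear respiratory factor 1 motif GCATGCGC was found in 14 of the 70 (20%), beside 3.27% of all 27305 promoters of this length and 4.25% of the 15221 promoters of protein-coding genes. The ETS motif CCGGAAG, bound by GABP among other factors, was found in 28.6% of the members, 10.7% of all promoters and 14.4% of protein-coding ones, and the YY1 motif ATGGCGGC in 17.1%, 3.21% and 4.58%. Among the members, only the YY1 matches of NDUFA7 and NDUFS8 lie before the start, and all others lie after it. The cyclic AMP response element TGACGTCA was found in 7.14%, 1.98% and 2.63%, the E-box CACGTG in 10%, 7.43% and 8.92%, and the estrogen-related receptor motif TCAAGGTCA in 1.43%, 0.359% and 0.243%, the last only in SDHD among the members. In SDHD the NRF1 motif is present on both strands in overlapping letters, starting 110 and 108 bases before the RefSeq start, with the ETS motif 77 bases before it. COX6A1 holds 2 NRF1 matches and 1 ETS match, CYCS 1 NRF1 match, and COX7A2L none of the 6 in the window searched. The median log2 fold change with MAPKi was 0.73 for the 12 genes tested that hold the NRF1 motif and 0.61 for the 49 that do not, and 0.80 for the 18 with the ETS motif and 0.60 for the 43 without. It was 0.67 for the 11 with the YY1 motif and 0.62 for the 50 without, 0.38 for the 5 with the cyclic AMP response element and 0.64 for the 56 without, and 0.61 for the 7 with the E-box and 0.64 for the 54 without. These matches are letters in a window, not measured binding.

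Gln depletion left most of the chain without a call, and the 2 genes called went in opposite directions. Replicates spread more widely than in the MAPKi experiment, with a standard error of 0.17 for NDUFB5, for example, against 0.04, so a gene without a call is not shown to be unchanged. Of the 75 genes tested, COX7A2L rose and ATP5MC3 fell (edgeR's quasi-likelihood test, adjusted after Benjamini-Hochberg), beside 8.84% of all 15900 genes tested that rose and 6.96% that fell. DESeq2 likewise called 1 gene up and 1 down. At an unadjusted p under 0.05, 2 of the 75 genes were higher (2.67%) and 8 lower (10.7%), beside 17.8% and 15.8% of all genes tested. A rise past 1.5-fold was called for 1 gene and a fall past it for 0, beside 3.21% and 1.65% of all genes tested. All 3 Gln-depleted libraries were above all 3 CTRL libraries for 5 genes and below them for 10, beside 20.1% and 18.4%. The 75 genes had a median log2 fold change of -0.08, against 0.02 for all genes tested. By complex the medians were -0.08 in complex I, 0.05 in complex II, -0.23 in complex III, 0.15 for cytochrome c, 0.06 in complex IV and -0.17 in complex V. They depended on single libraries, and leaving out 1 library at a time gave medians from -0.14 to 0.0047 in complex I and from -0.25 to -0.039 in complex V. In complex I no gene was called with edgeR or DESeq2, and at an unadjusted p under 0.05 3 were lower and 0 higher.

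In this experiment the labels put replicate 1 in experimental batch 1 and replicates 2 and 3 in batch 2. The libraries of a number deviated together, so the change was also fitted with the replicate number as a block. Within batch 2 the pairs rest on the numbers and on these deviations. With the block, 4 of the 75 genes rose and 16 fell, beside 22.7% and 19.8% of all genes tested. Past 1.5-fold, 1 gene rose and 1 fell with the block, beside 8.41% and 6.33% of all genes tested. The 4 were COX7A2L, COX7A2, NDUFA5 and NDUFA12, and the 16 came from complex I (6), complex II (1), complex III (3), complex IV (1) and complex V (5). Libraries of experimental batch 2 alone (2 per group) gave 2 rises and 7 falls, beside 15.5% and 13.7% of all genes tested, and batch 1 holds 1 library per group. Gln-depleted libraries were below CTRL in 3 of 3 pairs for 29 of the 75 genes (38.7%, beside 32.3% of all genes tested) and above in 3 of 3 pairs for 14 (18.7%, beside 35.6%). In complex V, 10 of 17 genes were below CTRL in all 3 pairs.

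COX7A2L (chr2:42333546-42425088, GRCh38, minus strand) had 3729, 3306 and 3450 normalised counts in CTRL medium and 8468, 8859 and 8670 with Gln depletion. The groups lay far apart, with a 2.48-fold rise (log2 fold change 1.31, standard error 0.17, edgeR's quasi-likelihood adjusted p = 0.0037, and 0.00043 with the block). It rose in all 17 alternatives, and by 1.18, 1.42 and 1.33 on the log2 scale in the 3 pairs, although its excess over 1.5-fold was no longer called without CTRL replicate 2 or 3 or Gln-depleted replicate 2 or 3. The related COX7A2, the general form of subunit 7A, had 5408, 4278 and 4307 in CTRL medium and 6998, 5983 and 5918 with Gln depletion. These groups did not overlap either, but the change was not called without the block (0.43, edgeR's quasi-likelihood adjusted p = 0.15) and was called with it (0.015), within batch 2 (0.042) and with all 12 libraries in 1 fit (0.028). COX7A1 had at most 4 reads in any library.

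ATP5MC3 had 11660, 8803 and 8976 normalised counts in CTRL medium and 5538, 3743 and 4688 with Gln depletion. It fell to 0.474 of the CTRL mean (log2 fold change -1.08, standard error 0.22, edgeR's quasi-likelihood adjusted p = 0.018, and 0.0008 with the block). The call was lost without CTRL replicate 2 (-1.15, edgeR's quasi-likelihood adjusted p = 0.0504), CTRL replicate 3 (-1.14, 0.0505) or Gln-depleted replicate 2 (-0.94, 0.076). The other genes of subunit c had overlapping groups. ATP5MC1 had 2499, 2078 and 2465 in CTRL medium and 2365, 1985 and 2676 with Gln depletion (log2 fold change -0.00, edgeR's quasi-likelihood adjusted p = 0.99). ATP5MC2 had 5405, 4609 and 5892 in CTRL medium and 5169, 5416 and 7705 with Gln depletion (0.20, edgeR's quasi-likelihood adjusted p = 0.55). With the block neither was called.

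Several genes were not called with Gln depletion in the fit without the block but fell with it, and those named here were chosen after their values were seen. Falls with the block numbered 16 of the 75 genes tested, beside 19.8% of all genes tested, so they are not read as particular to the chain. Of the 5 subunits of the F1 part of ATP synthase, alpha, beta, gamma and delta fell with the block and epsilon (ATP5F1E) was not called (-0.56, edgeR's quasi-likelihood adjusted p = 0.20). ATP5F1A had 27527, 18062 and 16760 normalised counts in CTRL medium and 17655, 11417 and 12807 with Gln depletion. The groups overlap, but each Gln-depleted library lies below the CTRL library of its number (log2 fold change -0.57, edgeR's quasi-likelihood adjusted p = 0.16, and with the block -0.56 and 0.0072). With the block, ATP5F1B was at -0.33, ATP5F1C at -0.46 and ATP5F1D at -0.58 (edgeR's quasi-likelihood adjusted p = 0.033, 0.013 and 0.0073, against 0.40, 0.12 and 0.13 without it). SDHA, the flavoprotein of complex II, had 5806, 3726 and 3272 in CTRL medium and 4015, 2132 and 1933 with Gln depletion. It too was lower in each pair (log2 fold change -0.66, edgeR's quasi-likelihood adjusted p = 0.21, and with the block -0.70 and 0.0038), and within batch 2 it was at -0.78 (edgeR's quasi-likelihood adjusted p = 0.015). UQCRFS1 of complex III fell by 0.48 on the log2 scale with the block (edgeR's quasi-likelihood adjusted p = 0.012).

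**Figure D3:**
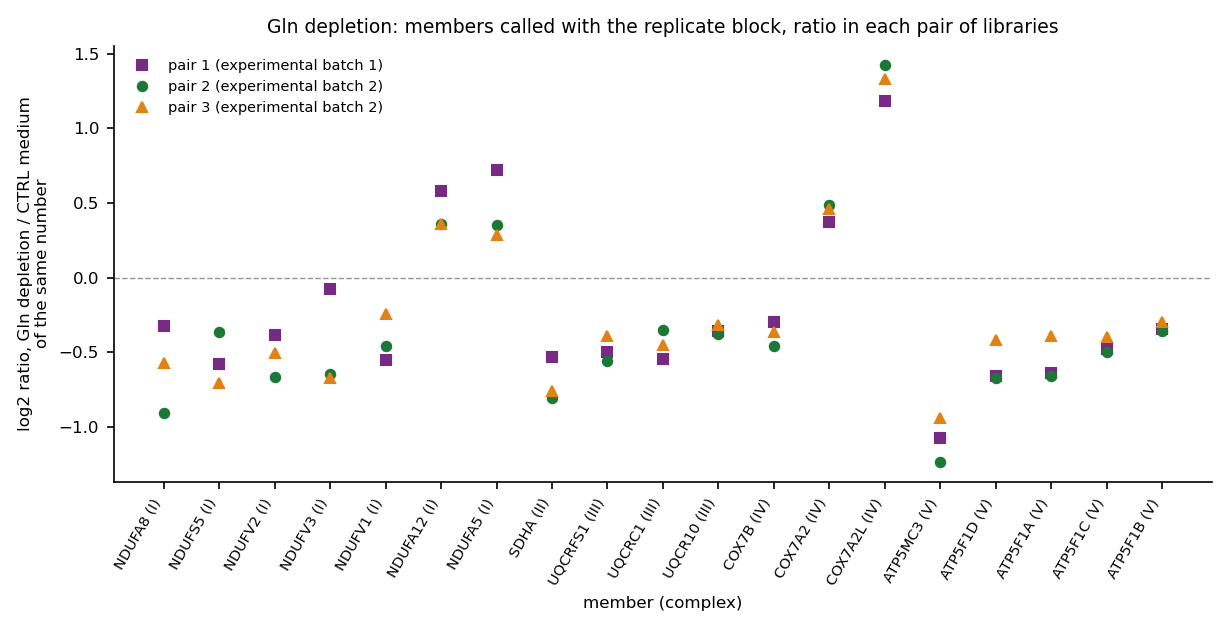
Log2 ratio of normalised counts, Gln depletion over CTRL medium, in each of the 3 pairs of libraries with the same number, for 19 of the 20 genes called with the replicate block. ATP5MC3 lies at -1.07, -1.23 and -0.94 and COX7A2L at 1.18, 1.42 and 1.33.

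The 10 genes named above for the largest rises with MAPKi in their complexes were not called as risen with Gln depletion, with or without the block. Besides SDHA, COX7B and ATP5F1B fell with the block (-0.37 and -0.33, edgeR's quasi-likelihood adjusted p = 0.035 and 0.033), and COX7B also fell with all 12 libraries in 1 fit (-0.41, edgeR's quasi-likelihood adjusted p = 0.0066). NDUFB5 had 3335, 3181 and 3059 normalised counts in CTRL medium and 3531, 3327 and 3408 with Gln depletion (log2 fold change 0.10, edgeR's quasi-likelihood adjusted p = 0.70). SDHD was at 0.04 and COX6A1 at 0.18, with overlapping groups in both cases. CYCS had 4389, 8504 and 8475 in CTRL medium and 6083, 9378 and 8215 with Gln depletion, so libraries of number 1 were low in both groups and no change was called (0.15, edgeR's quasi-likelihood adjusted p = 0.76). Some genes varied by more than 3-fold within a group of this experiment. UQCRB had 853, 2193 and 2766 in CTRL medium and 907, 2322 and 2858 with Gln depletion, so its libraries differed more by number than by medium. SDHB had 27.3, 1425 and 9.5 normalised counts with Gln depletion and 318, 28.7 and 17.0 in CTRL medium, and UQCRC2 60.9, 28.4 and 19.1 beside 96.1, 906 and 8.92, so for both a single library sets the mean. The cause of this spread was not tested.

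The change with MAPKi was compared directly with the change with Gln depletion in 1 fit of the 12 libraries. It was higher with MAPKi for 42 of 76 genes and higher with Gln depletion for 1, COX7A2L, beside 17.2% and 18.9% of all 16072 genes tested. The median difference of the 76 genes was 0.85 on the log2 scale, against -0.04 for all genes tested. With the replicate block the counts were 62 and 1, beside 25.1% and 28.1% of all genes tested. Genes with a higher change with MAPKi numbered 17 of 33 in complex I, 3 of 4 in complex II, 4 of 10 in complex III, 8 of 11 in complex IV and 10 of 17 in complex V. The difference was 1.97 for ATP5MC3 (standard error 0.22, edgeR's quasi-likelihood adjusted p = 5.0e-05) and -0.83 for COX7A2L (standard error 0.14, edgeR's quasi-likelihood adjusted p = 0.00064). For ATP5MC2 it was -0.06 and not called (edgeR's quasi-likelihood adjusted p = 0.85). For CYCS it was 0.75, called only with the block (edgeR's quasi-likelihood adjusted p = 0.084, and 0.0025 with the block).

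Other mitochondrial gene groups did not all move with the subunits. The counts with MAPKi below stand beside 35.8% of all genes tested that rose and 35.9% that fell. Of 13 TCA cycle genes, 12 rose with MAPKi and 0 fell (median log2 fold change 0.55). OGDH, of the 2-oxoglutarate dehydrogenase complex, had 4697, 4443 and 4852 normalised counts with DMSO and 11682, 11523 and 11407 with MAPKi, without overlap (log2 fold change 1.31, edgeR's quasi-likelihood adjusted p = 5.1e-08). Of 56 assembly factors tested, which help to build the complexes without being part of them, 28 rose and 16 fell (median 0.15). Among those of complex I, 7 rose (38.9%) and 8 fell (44.4%), near the shares of all genes tested. NDUFAF2 was at -1.29 and TMEM126B at -0.91, whereas UQCC1, a complex III assembly factor, was at 1.43. Of 72 mitochondrial ribosomal protein genes, 19 rose and 40 fell (median -0.25), and of 74 cytosolic ones 2 rose and 69 fell (-0.47). MRPL17 was at -1.66 and MRPL3 at -1.41, while MRPL34 was at 1.05 and MRPL15 at 1.00.

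With Gln depletion, 0 of the 13 TCA cycle genes were called by edgeR and 1 fell with DESeq2 (median -0.42), 4 were lower at an unadjusted p under 0.05, and 8 fell with the block. Of 55 assembly factors, 1 rose and 6 fell, and with the block 10 rose and 11 fell. Of all genes tested, 8.84% rose and 6.96% fell, and with the block 22.7% rose and 19.8% fell. The block counts of the assembly factors are therefore not read as particular to them. DESeq2 called 12.2% of all genes tested as risen and 10.2% as fallen. At an unadjusted p under 0.05, 17.8% were higher and 15.8% lower. COX19, an assembly factor of complex IV, had 427, 420 and 372 normalised counts in CTRL medium and 1065, 1348 and 1247 with Gln depletion (log2 fold change 1.59, edgeR's quasi-likelihood adjusted p = 0.0033). NDUFAF5 and NDUFAF3, both of complex I assembly, fell by 1.28 and 1.06 (edgeR's quasi-likelihood adjusted p = 0.029 for each). NDUFA4L2, a relative of NDUFA4 whose symbol lies outside the rule, had 30.4, 23.9 and 13.4 in CTRL medium and 164, 103 and 167 with Gln depletion (2.68, standard error 0.41, edgeR's quasi-likelihood adjusted p = 0.0070). Of 77 cytosolic ribosomal protein genes 13 rose and 0 fell with edgeR, and 23 and 0 with DESeq2 (median 0.53, with 39 higher and 1 lower at an unadjusted p under 0.05, and 55 rises and 2 falls with the block), and of 72 mitochondrial ones 3 rose and 4 fell (-0.12), or 7 and 18 with the block.

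**Figure D4:**
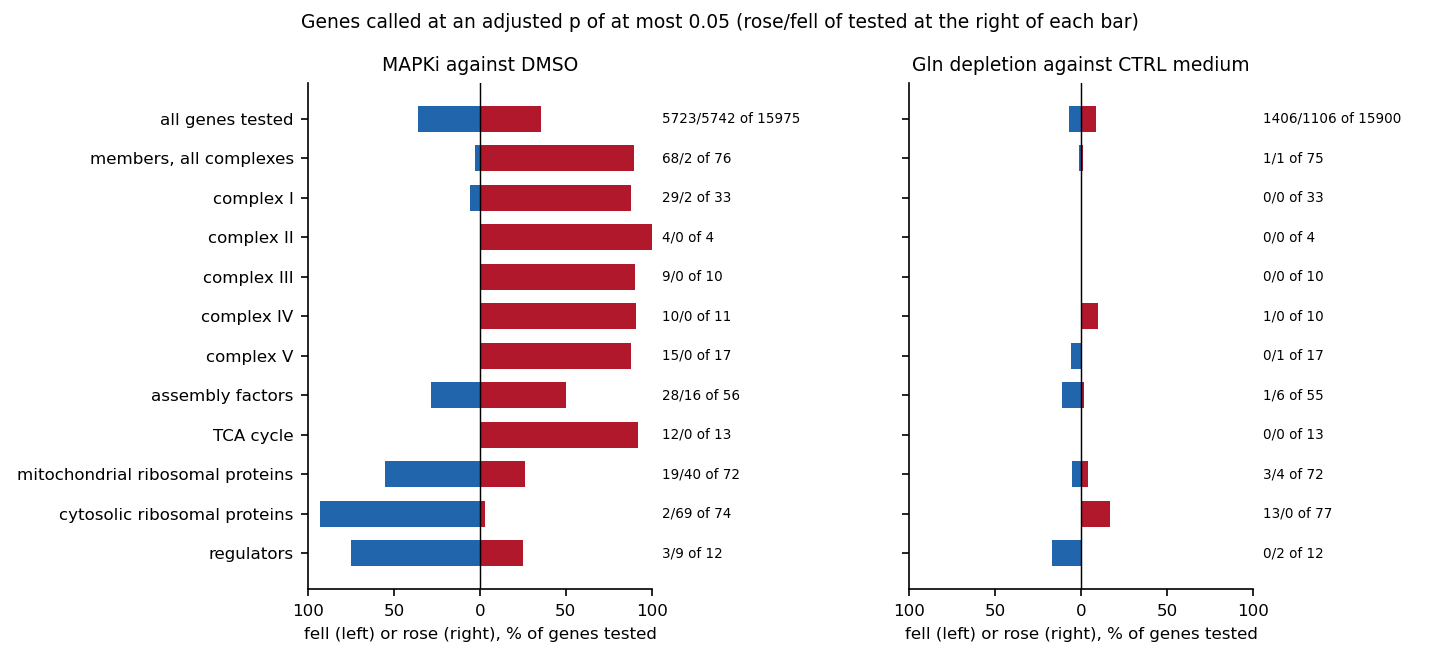
Percent of the genes tested in each set that rose (right) or fell (left) in the MAPKi and Gln depletion experiments, including the complexes, assembly factors, TCA cycle and ribosomal protein genes. With MAPKi 89.5% of the subunits tested rose, beside 50% of the assembly factors, 26.4% of the mitochondrial ribosomal protein genes and 35.8% of all genes tested.

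Among 12 regulators of mitochondrial gene expression and respiration, 3 rose and 9 fell with MAPKi, beside 35.8% and 35.9% of all genes tested. PPARGC1A, the coactivator PGC-1 alpha, had 3636, 3374 and 3712 normalised counts with DMSO and 11007, 11455 and 11699 with MAPKi, without overlap (log2 fold change 1.67, edgeR's quasi-likelihood adjusted p = 2.6e-08). ESRRA, the estrogen-related receptor alpha with which it acts, had 3055, 3108 and 3080 with DMSO and 9094, 9419 and 9540 with MAPKi (1.60, edgeR's quasi-likelihood adjusted p = 1.2e-08). The related coactivator PPARGC1B went the other way, with 782, 857 and 724 normalised counts with DMSO and 186, 177 and 164 with MAPKi (-2.17, edgeR's quasi-likelihood adjusted p = 1.4e-07). TFB1M, a mitochondrial rRNA methyltransferase, was at -1.99 and NRF1, the factor that binds the motif of the same name, at -0.73. With Gln depletion PPARGC1B (-1.63) and TFB1M (-1.01) also fell (edgeR's quasi-likelihood adjusted p = 0.012 and 0.020), and PPARGC1A was called only with the block (-0.55, edgeR's quasi-likelihood adjusted p = 0.038, against 0.18 without it).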

How the data were processed

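RNA-seq libraries of A375 cells were grouped by their labels into MAPKi, DMSO, Gln depletion and CTRL (3 each). The authors trimmed reads with fastp 0.20.1, aligned them to GRCh38.p13 with HISAT2 2.2.1 and counted them per gene with HTSeq 0.13.5, and the deposited values are raw read counts. Between 31056296 and 40071368 reads were counted per library. The spread between replicates limits the precision, and for genes with few reads, such as SDHB and UQCRC2, counting limits it too. Each experiment was fitted on its own, by the quasi-likelihood method of edgeR 4.0.16 under R 4.3.3 after TMM normalization, with treatment as the term, on genes with a mean normalised count of at least 10, against no change and against a log2 fold change of 0.585, with p-values adjusted by Benjamini-Hochberg at 0.05. The study used DESeq2, run here as an alternative (1.42.0). The difference between experiments was a contrast over the 12 libraries. Standard errors are those of the log2 fold change. Figures were drawn with matplotlib 3.10.9.

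Copies of a gene (5084 in the table) were not added to it. In the Gln depletion experiment the deviations of same-numbered libraries from their group means correlated at 0.4871, 0.3407 and 0.3856, and the labels put replicate 1 in experimental batch 1 and replicates 2 and 3 in batch 2, so numbers were taken as pairs. All libraries of this experiment belong to sequencing batch 1, and the MAPKi and DMSO libraries to sequencing batch 2. The genes, lists, motifs and tests were chosen with earlier results of these data known. Named with the value of each library were the 2 largest changes per complex and experiment among genes called with a mean normalised count of at least 100 and groups without overlap, genes against their complex, CYCS, the subunit c genes, ATP5IF1, isoform pairs and, per list, the 2 largest rises and falls. Cytosolic ribosomal protein genes, RPL and RPS copies among them, are given as counts only, and some genes that the rule names are not reported here. The procedure was tested on simulated data, where far fewer changes were recovered with the spread of the CTRL libraries than with that of the DMSO libraries.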

Additional observations from a re-analysis of the deposited data

How the results depend on the processing

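Alternatives were DESeq2, other filters, protein-coding genes only, corrections for GC content or transcript length, all 12 libraries in 1 fit, an adjusted p of 0.01, the replicate block and each library left out, and none turned the direction of a named gene that was called. The count of 68 subunits that rose with MAPKi was 67 with DESeq2, 48 with all 12 libraries (22.2% of all genes tested) and 71 with the length correction. Falls with MAPKi (2) numbered 0 with all 12 libraries or the length correction, and rises past 1.5-fold (34) numbered 15 with all 12 libraries. With the replicate block, Gln depletion gave 4 rises and 16 falls (1 past 1.5-fold), and with the GC correction and replicate block 3 and 17 (1 past 1.5-fold). All 12 libraries gave 2 rises and 12 falls (1 past 1.5-fold; all genes tested 18.3% and 19.8%), batch 2 alone 2 and 7 (1 past 1.5-fold), the GC correction 5 falls (all genes 12.7%), no filter 2 falls (all genes 4.73%) and an adjusted p of 0.01 gave 0 falls. With the GC correction and replicate block, 2 subunits had a higher signed change with Gln depletion than with MAPKi. Same-numbered MAPKi and DMSO libraries shared little deviation from their group means (correlations of 0.0235, 0.0495 and 0.0199). There the replicate block gave 69 rises and 2 falls.

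With the GC correction the MAPKi medians were 0.48 in complex I, 0.92 for cytochrome c, 0.93 in complex IV and 0.68 in complex V, and with the replicate block added 0.49, 0.92, 0.93 and 0.68. With the length correction they were 0.63 in complex I, 0.79 in complex III, 1.05 in complex IV and 0.67 in complex V. A mean count of at least 100 gave 0.66 in complex II and 0.53 in complex V. With no filter the median of complex IV with Gln depletion was -0.10. The levels per length of ATP5MC1, ATP5MC2 and ATP5MC3 in DMSO were 108, 158 and 241 with merged exons and 347, 773 and 288 with the MANE Select transcript, an alternative chosen after seeing the data.

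Leaving out each library gave 63 to 70 rises and 2 falls with MAPKi, 33 to 37 rises past 1.5-fold, 1 rise and 0 to 3 falls with Gln depletion, and 0 to 1 rises past 1.5-fold. Subunits with a higher change with MAPKi numbered 36 to 45, and with Gln depletion 1 to 2. The falls with Gln depletion numbered 0 without CTRL replicate 2 or 3 or Gln-depleted replicate 2, and 3 without Gln-depleted replicate 1, where SDHA and NDUFA8 were called too. MAPKi medians were 0.55 to 0.59 in complex I, 0.77 to 0.92 in complex II, 0.65 to 0.76 in complex III, 0.83 to 0.87 for cytochrome c, 0.81 to 0.86 in complex IV and 0.56 to 0.59 in complex V. With Gln depletion they were -0.14 to 0.0047 in complex I, -0.23 to 0.058 in complex II, -0.35 to -0.080 in complex III, -0.11 to 0.30 for cytochrome c, -0.081 to 0.096 in complex IV and -0.25 to -0.039 in complex V. The cause of these changes was not tested.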
